A study of Arabidopsis thaliana with 12 samples.

Results

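Shoot apices of Arabidopsis thaliana from 3 genotypes were compared after 4 long days with apices of the same genotypes on day 0. The members are 6 of the 12 arrays of the series, those titled day 0 and day 4 in the genotypes friCol-FLC, friCol-flc3 and FRISf2-flc3, and they give 3 arrays against 3, paired by genotype. The 2 arrays of FRISf2-FLC on the same days were kept out of the fit of that comparison and used to read whether each responding gene also responded there. They entered only the filter on low values, which is a mean over all 12 arrays. The assay was a one-colour expression array of total RNA, and the series holds 1 array per genotype on each of days 0, 2 and 4.

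All 4 genotypes have a Columbia (Col-0) background. The wild type, friCol-FLC, has the Col-0 alleles of 2 flowering genes, FRI (FRIGIDA) and FLC (FLOWERING LOCUS C). friCol-flc3 has the Col-0 FRI allele and the deletion allele flc-3. FRISf2-flc3 combines flc-3 with the active FRI of the accession San Feliu-2 (Sf-2), brought in by introgression, and FRISf2-FLC has that FRI allele with the Col-0 FLC. An introgression can also carry Sf-2 sequence next to FRI. All plants were kept at 21 °C, first for 30 short days (9 h light, 15 h dark) and afterwards in long days (16 h light, 8 h dark). How many plants made up an array and the hour of harvest are not in the labels. No plants were kept in short days past day 0, so the effects of long days, of plant age and of the harvest occasion cannot be told apart. The arrays hold no record of flowering time.

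FRI raises the level of FLC, a MADS-box protein that represses flowering, and the FRI allele of Col-0 is inactive. The first 3 genotypes therefore lack active FRI, FLC or both, while FRISf2-FLC has both. Long days promote flowering in Arabidopsis through a leaf pathway that reads the circadian clock, and the shoot apex, which holds the meristem and the youngest leaves, then turns to making flowers. No probe set was annotated with FLC or FRI alone, and the labels could not be compared with the levels of the altered genes.

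Each group of genotype and day has 1 array, and the genotypes stand as the replicates of the day response. The errors below therefore hold both array noise and true differences of response between genotypes. Values after ± are limma's moderated standard errors, which pull each probe set's variance toward that of probe sets of similar level. They can be smaller or larger than the spread of the 3 differences alone would give. Values are deposited log2 levels, and a difference is the day 4 level minus the day 0 level on that scale. Of 8247 probe sets that were not controls, 6185 passed a filter on low values (a mean over the 12 arrays above 3.56) and were tested with limma. The threshold was an adjusted p of 0.05 (Benjamini-Hochberg over the 6185), and a probe set past it is called. Calling selects differences that are large beside their spread. Remarks below that the days did not overlap in a called gene are therefore no separate support. The medians of the 6 arrays lay between 5.32 and 5.36, and the BioB hybridisation control between 7.46 and 7.79. On the 2 FRISf2-FLC arrays of the same days BioB was lower, at 7.23 to 7.30. Whether this bears on the values read there was not tested. Among shoot meristem markers 1 of 11 had a probe set (UFO), and the flower and epidermis markers had 0 of 13 and 0 of 3, so the tissue was hardly checked by its markers.

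After 4 long days, genes for a thionin, GDSL lipase-like proteins and pectin methylesterase inhibitor-like proteins were among the largest rises in all 3 genotypes. The thionin gene THI2.1 rose 7.91-fold. Those that fell included genes of glucosinolate synthesis, of cold or dehydration response and 2 clock-related genes, CCL and GI. AT2G25450 was 14.1-fold and MSRB5, of redox repair, 12.3-fold lower. Redox genes moved both ways, with 2 higher and 2 lower of 11. Most called probe sets (93.8%) also moved the same way in FRISf2-FLC, against 71.5% of all tested. There 72.8% of the called probe sets fell short of the 3-genotype mean, against 64.1% of all tested.

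In all, 1090 probe sets were called, 17.6% of those tested. Of these, 511 were higher (8.26%) and 579 were lower (9.36%). All 1090 moved the same way in the 3 genotypes, as did 53.2% of all probe sets tested. The calls rest on these same 3 differences, and mixed signs make a call unlikely. The agreement of called probe sets is therefore no separate support. The median difference of the higher probe sets was 0.48, with medians of 0.48 in friCol-FLC, 0.49 in friCol-flc3 and 0.48 in FRISf2-flc3. The lower ones had a median of -0.58, with -0.64, -0.57 and -0.60 in the same order, and the median over all tested was 0.03. Differences of 1 or more, at least 2-fold, were fewer, with 60 higher and 105 lower. A change of at least 1 in each of the 3 genotypes was met by 33 higher probe sets (0.534% of those tested) and 66 lower ones (1.07%), and all 99 of them were called. In total 412 called probe sets had exactly 1 annotated gene, and they stand for 392 genes. Without the FRISf2-flc3 pair 642 were called, and without friCol-FLC or friCol-flc3 the counts were 1102 and 1101. In whole apices, a lower level cannot be told apart as fewer cells of a type or as less RNA per cell.

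**Figure D1:**
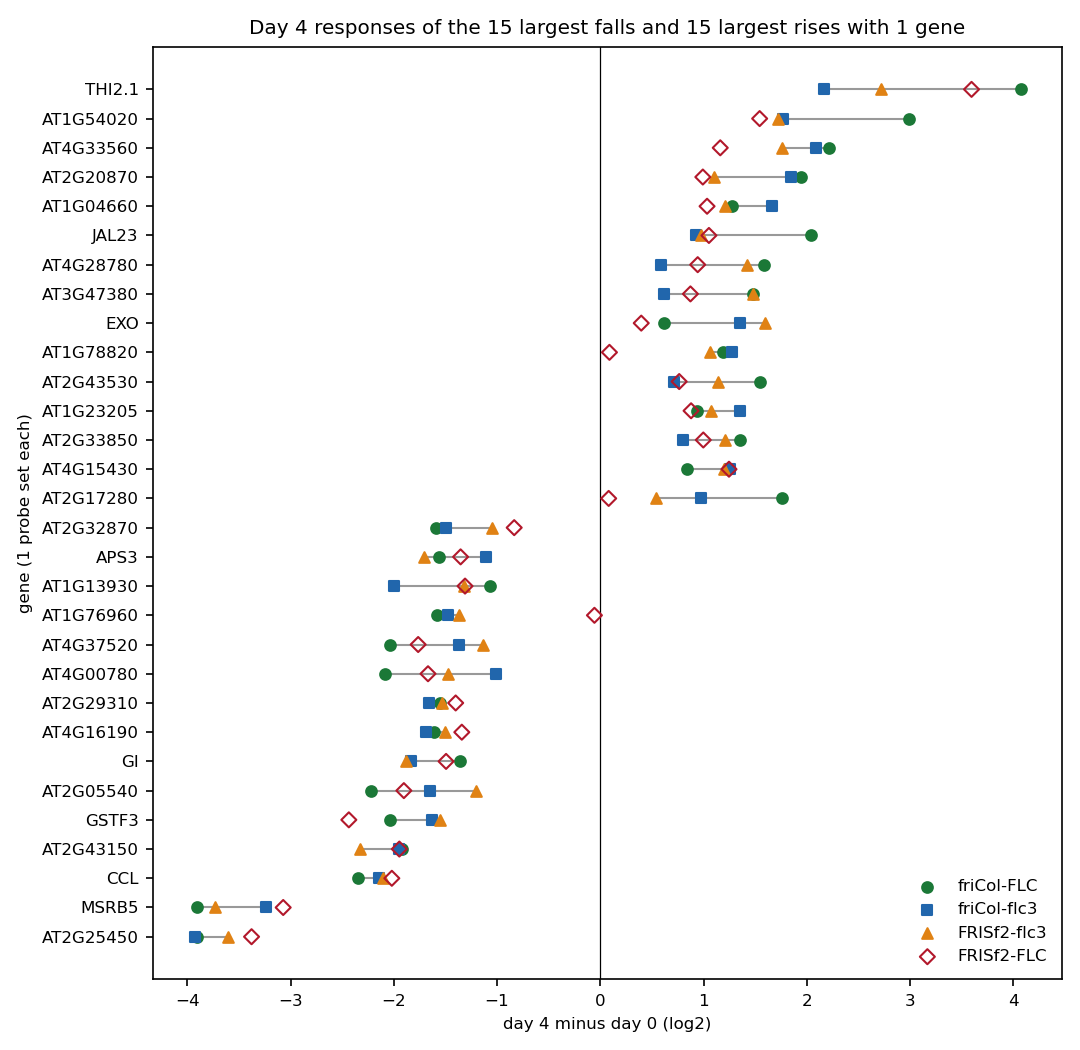
Day 4 minus day 0 differences (log2, x axis) of the 15 largest rises and 15 largest falls among called probe sets with 1 gene. Filled symbols are the 3 genotypes, joined by a line over their range, and the open diamond is FRISf2-FLC; each symbol is 1 pair of arrays. In FRISf2-FLC, AT1G76960, AT1G78820 and AT2G17280 lie near 0, at -0.06, 0.09 and 0.08.

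The largest rise of a named gene was that of THI2.1, which encodes a thionin, a small cysteine-rich antimicrobial protein. Its level on day 0 was 6.18 in friCol-FLC, 6.60 in friCol-flc3 and 6.71 in FRISf2-flc3, and on day 4 it was 10.25, 8.76 and 9.42. Every day 4 array lay above every day 0 array, and friCol-FLC went from the lowest level to the highest. The mean difference was 2.98 ± 0.298 (moderated standard error, 3 pairs), or 7.91-fold (limma adjusted p = 0.000466). The 3 differences themselves had a standard deviation of 0.98. A second THI2.1 probe set rose by 2.72, while another measured 0.36 without a call (adjusted p = 0.122). With a robust trend the calls of both ended, at adjusted p-values of 0.0500243 and 0.069.

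AT1G54020, a GDSL lipase-like gene, rose by 2.16 ± 0.226, or 4.47-fold (adjusted p = 0.000554). It measured 4.35, 5.12 and 5.19 on day 0 in friCol-FLC, friCol-flc3 and FRISf2-flc3, and 7.34, 6.89 and 6.91 on day 4. The days did not overlap, and the rise was steepest in friCol-FLC, at 2.99 against 1.77 and 1.72. AT4G33560 rose from 6.02, 5.605 and 6.18 to 8.24, 7.69 and 7.94, a difference of 2.02 ± 0.107. In this gene the 3 genotypes lay close together, with rises of 2.22, 2.09 and 1.76.

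The other large rises ran from 1.09 to 1.63. They include AT2G20870 at 1.63 ± 0.159, the glycine-rich protein gene AT1G04660 at 1.39 ± 0.109 and the jacalin-related lectin gene JAL23 at 1.32 ± 0.201. AT4G28780, another GDSL lipase-like gene, rose by 1.196, and the pectin methylesterase inhibitor-like genes AT3G47380 and AT1G23205 rose by 1.19 and 1.12. For AT3G47380 this was the largest of 3 probe sets, all called higher, and another rose by 0.74. EXO (EXORDIUM), a gene tied to growth of young tissue, rose by 1.19 ± 0.168, from 8.47, 7.34 and 7.395 to 9.09, 8.70 and 8.99. Its friCol-FLC level was already high on day 0, and its rise there, 0.62, was the smallest of the 3. AT1G78820, a mannose-binding lectin-like gene, rose by 1.18 ± 0.0884. AT2G43530, AT2G33850, AT4G15430 and AT2G17280 rose by 1.13, 1.12, 1.098 and 1.09.

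Falls were larger than rises at the top of the named genes. AT2G25450, a dioxygenase gene of glucosinolate side-chain modification, measured 8.47, 8.43 and 8.32 on day 0 in friCol-FLC, friCol-flc3 and FRISf2-flc3. On day 4 it measured 4.56, 4.51 and 4.72. The arrays of a day differed by little beside the gap between days, and the fall of 3.81 ± 0.0985 is 14.1-fold (adjusted p = 7.19e-07). MSRB5, a methionine sulfoxide reductase gene, fell from 8.35, 7.93 and 7.54 to 4.44, 4.69 and 3.81. Its mean fall was 3.63 ± 0.131, or 12.3-fold (adjusted p = 4.5e-06), and the days did not overlap.

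CCL, named as CCR-like after a clock-controlled RNA, fell by 2.20 ± 0.0896. It was highest in friCol-flc3 and lowest in friCol-FLC on both days, with 9.61 and 8.89 on day 0 and 7.47 and 6.54 on day 4. AT2G43150, an extensin-like cell wall protein gene, fell from 11.64, 11.34 and 11.60 to 9.73, 9.39 and 9.27, a difference of -2.07 ± 0.0988. GSTF3, a glutathione transferase gene, fell by 1.74 ± 0.112 on a probe set that may also read close relatives, and APS3, an ATP sulfurylase gene of sulfate assimilation, fell by 1.46 ± 0.123. AT4G16190, a papain-like cysteine protease gene, fell by 1.601, and AT4G37520, a peroxidase gene, fell by 1.51. The glycine-rich protein gene AT2G05540 fell by 1.69, and AT2G29310, related to tropinone reductases, by 1.58. AT4G00780 and AT2G32870, both TRAF-like, fell by 1.52 and 1.38. AT1G76960 and AT1G13930 fell by 1.48 and 1.46.

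**Figure D2:**
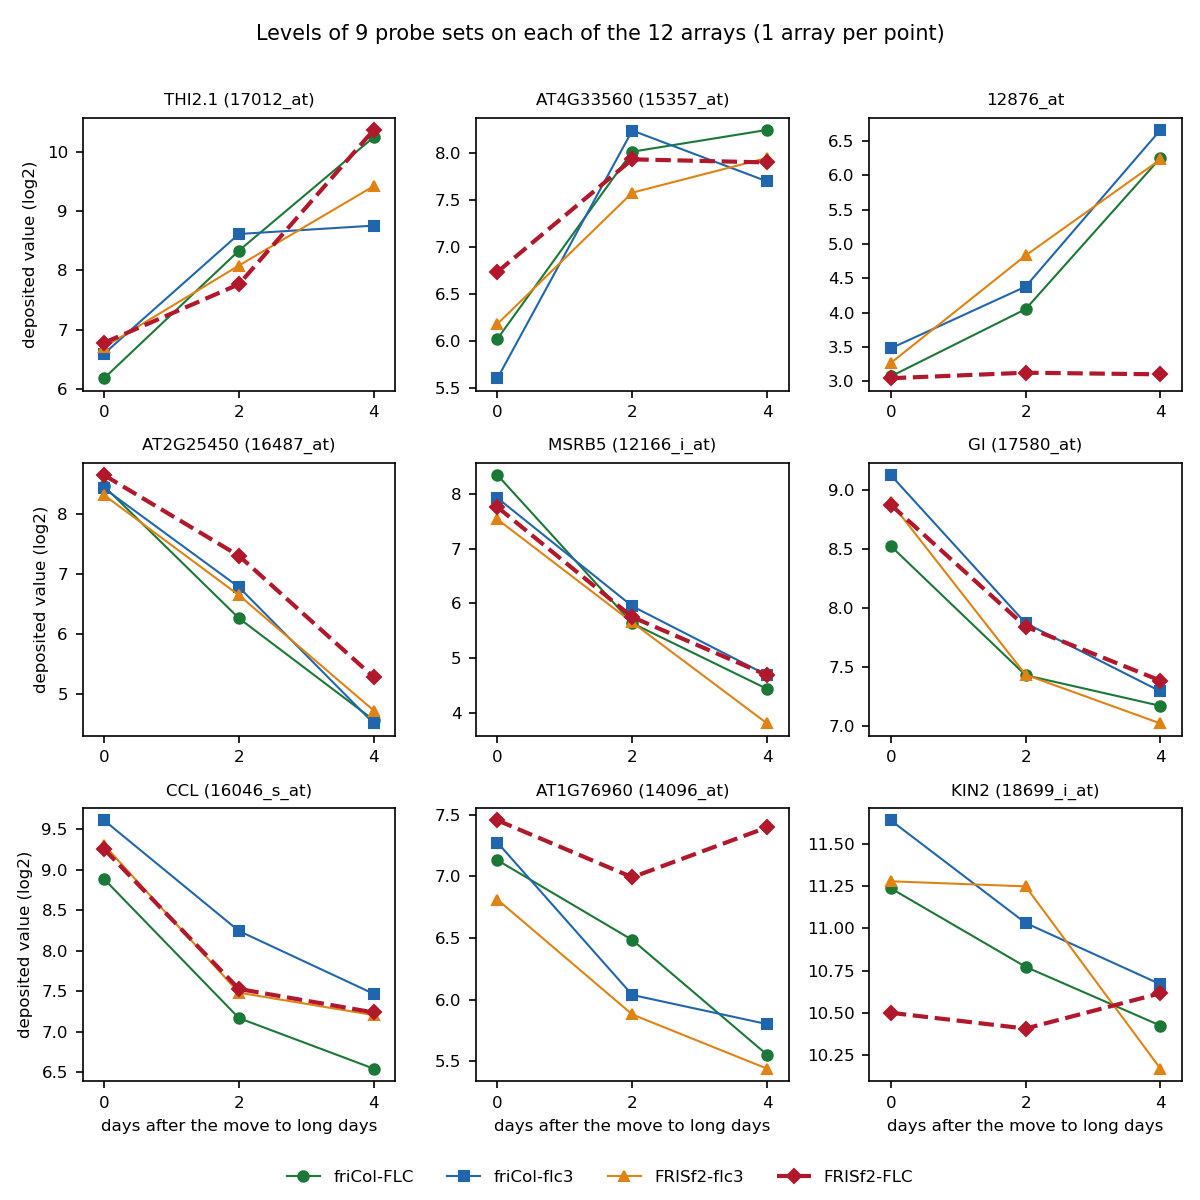
Deposited level (log2, y axis) against days after the move to long days (x axis) for 9 probe sets, chosen after their values were seen. Each point is 1 array and lines join the arrays of a genotype; FRISf2-FLC is dashed. 12876_at stays between 3.04 and 3.12 in FRISf2-FLC and reaches at least 6.23 on day 4 in the others, and KIN2 starts lower in FRISf2-FLC (10.50) than in the others (at least 11.24).

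Genes were then read by group, from 18 lists put together mainly by gene symbol. AT2G25450 and AT2G31790 were added to the glucosinolate list by locus, and AT1G54010, AT1G54020 and AT1G52100 to the lectin and GDSL lipase list. The lists were chosen with earlier results of these data known, so their counts of called members are no separate support. Of these lists 17 had a tested probe set. Together they hold 129 tested probe sets, of which 16 were called higher and 33 lower, against 8.26% higher and 9.36% lower of all tested. A list's median is given beside the 0.03 of all tested probe sets.

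The clock and photoperiod list had 4 tested probe sets, all lower, with a median of -1.65. They belong to only 2 genes, CCL and GI (GIGANTEA), which acts in the circadian clock and promotes flowering in long days. The 3 tested probe sets of GI fell by 1.69 ± 0.117, 1.604 ± 0.0901 and 1.34 ± 0.0873. On the first of them GI measured 8.53, 9.13 and 8.90 on day 0 and 7.17, 7.29 and 7.02 on day 4. All 3 genotypes fell, and the days did not overlap. Both genes are known to cycle over the day, and the light period and harvest hour cannot be told apart from the day here.

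Of the glucosinolate list, 3 of 5 tested probe sets were lower and 1 was higher. Glucosinolates are the sulfur-rich defence compounds of Brassicaceae. Beside AT2G25450, AT2G31790, a glucosyltransferase gene related to UGT74B1, fell by 1.08 ± 0.0878. UGT74B1, whose enzyme adds the glucose in the core pathway, fell by 0.85 ± 0.0819, from 8.59, 8.59 and 8.70 to 7.71, 7.73 and 7.89. The days did not overlap in AT2G25450, AT2G31790 or UGT74B1, all of them called. The other 2 were listed by family name, and their enzymes are known for other substrates. UGT74D1 was higher by 0.57 ± 0.0944, and UGT74F1 measured 0.33 ± 0.114 without a call (adjusted p = 0.0868).

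Redox genes had 2 higher and 2 lower of 11, and the median was 0.18. The falls were MSRB5 and GSTF3, described above. MSRB9, of the same enzyme family as MSRB5, was higher by 0.42 ± 0.0966, and GSTU18, another glutathione transferase gene, by 0.40 ± 0.0912. Members of both families thus moved in opposite directions. The MSRB9 call ended without friCol-FLC or without friCol-flc3, and that of GSTU18 without FRISf2-flc3.

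Defence genes also moved both ways, with 2 higher and 2 lower of 6 tested probe sets and a median of 0.08. The 6 probe sets belong to 4 genes, and both higher ones are of THI2.1, which has another probe set without a call. THI2.2, a close relative of THI2.1, fell by 1.12 ± 0.0861. It measured 6.21, 6.51 and 6.30 on day 0 and 5.18, 5.32 and 5.17 on day 4, so it moved against THI2.1 in all 3 genotypes. OSM34, a thaumatin-like (osmotin) gene, fell by 1.23 ± 0.146, from 5.11, 5.63 and 4.84 to 3.82, 4.03 and 4.04. The plant defensin gene PDF2.1 measured -0.19 without a call.

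Lectin and GDSL lipase genes had 2 higher and 3 lower of 6, with a median of -0.42. JAL23 and AT1G54020 were the rises. JAL34, another jacalin-related lectin gene, fell by 1.23 ± 0.145, JAL31 by 0.92 ± 0.128 and AT1G52100, also of the jacalin type, by 0.71 ± 0.0955. JAL34 measured 5.25, 5.04 and 5.11 on day 0 and 4.09, 3.39 and 4.25 on day 4. AT1G54010, a GDSL lipase-like gene with a locus name next to AT1G54020, measured -0.14 ± 0.130 without a call (adjusted p = 0.515).

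The list of cold, dehydration and abscisic acid had 0 higher and 8 lower of 11 tested probe sets, with a median of -0.58. The 11 probe sets belong to 8 genes, and the lower ones include 2 each of COR47, KIN2 and RD2. The dehydrin gene COR47 fell by 1.101 ± 0.1504 and 1.04 ± 0.135 on 2 probe sets. KIN2, a cold-induced gene, fell by 0.97 ± 0.083 and 0.93 ± 0.0875 on 2 probe sets. On the first, KIN2 measured 11.24, 11.64 and 11.28 on day 0 and 10.42, 10.67 and 10.17 on day 4, without overlap. The dehydrin gene LTI30 fell by 0.58 ± 0.155 and LEA4-5, a late embryogenesis abundant protein gene, by 0.51 ± 0.102. RD2 fell by 0.43 and 0.39 on 2 probe sets, both without a call once FRISf2-flc3 was left out. COR15B measured -1.03 ± 0.447 with a wide spread between genotypes and no call (adjusted p = 0.16). The LTI30 call ended without friCol-flc3, without FRISf2-flc3 and without the genotype block.

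The photosynthesis list had 2 higher, 1 lower and 11 not called of 14 tested probe sets, which belong to 11 genes, with a median of -0.05. LHCB4.3, a minor light-harvesting protein of photosystem II, rose by 0.96 ± 0.0959, from 5.01, 5.41 and 4.90 to 6.14, 6.21 and 5.84. Its relative LHCB4.1 measured -0.23 ± 0.073 without a call. SBPASE, a Calvin cycle enzyme gene, was higher by 0.30, and PSAE-1, of photosystem I, lower by a difference of -0.42 on 1 of its 3 probe sets. SBPASE kept its call in only 5 of 12 alternative settings, and the PSAE-1 call ended with the day 2 arrays added. PORB, an enzyme of chlorophyll synthesis, fell by 0.63 ± 0.0891 and was the 1 call among 4 tested genes of chlorophyll and heme synthesis. The summed linear level of the 3 expanded leaf markers with a probe set (PRK, RCA and SBPASE, of 12 listed) was 2056 to 2401 on day 0 and 1682 to 2014 on day 4. Most of this sum is RCA, which measured -0.31 without a call (adjusted p = 0.0971), while PRK measured 0.02 and SBPASE was higher. The markers thus did not move together, and the share of leaf tissue in these results was not tested.

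**Figure D3:**
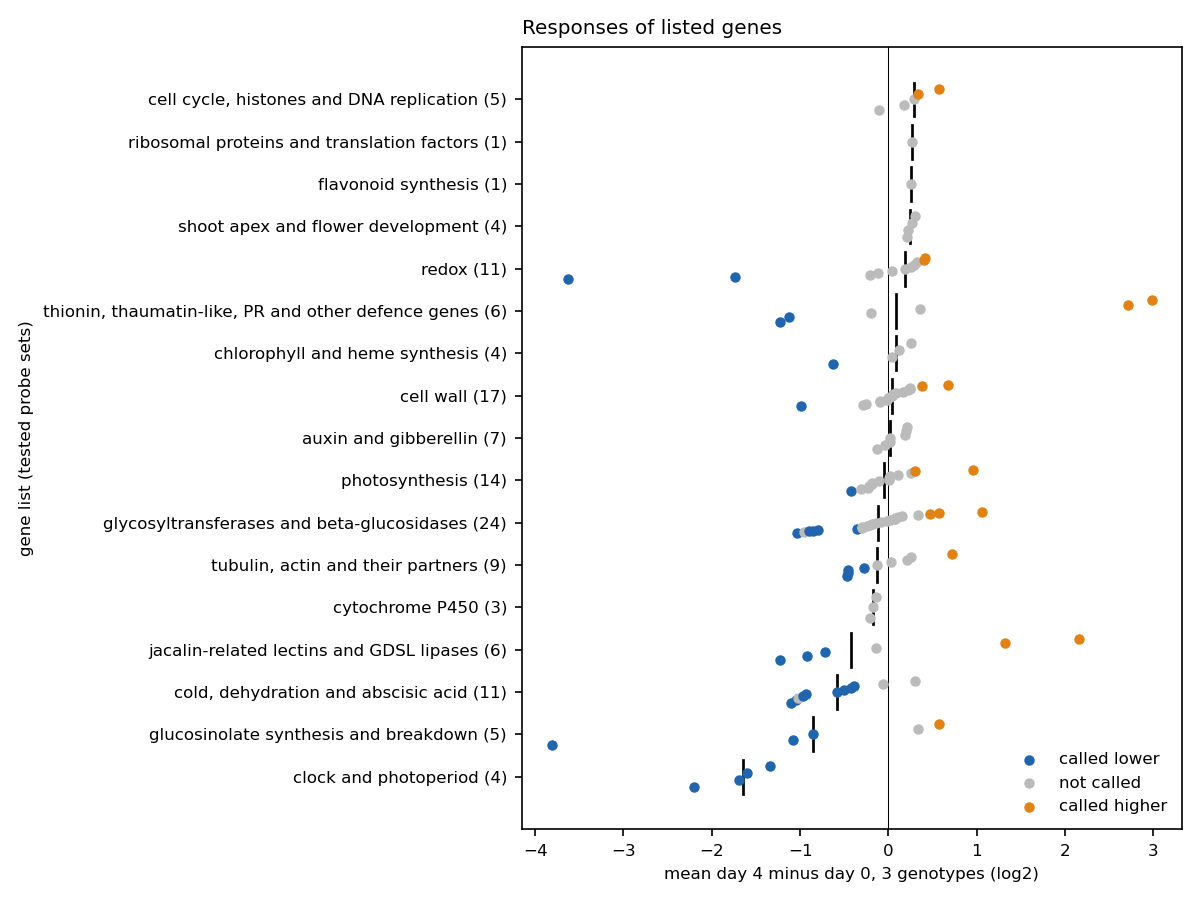
Mean day 4 minus day 0 differences (log2, x axis) over the 3 genotypes for each tested probe set of the 17 lists (y axis, number tested in brackets), coloured by call. Black bars are list medians. The clock list (median -1.65) and the cold and dehydration list (median -0.58) have no called rise.

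The called members of the growth-related groups moved by less than 1 (log2). The cell cycle list had 2 higher and 0 lower of 5, with a median of 0.29. AUR2, an Aurora kinase gene of dividing cells, rose by 0.57 ± 0.0918, from 6.81, 6.98 and 6.70 to 7.37, 7.41 and 7.41, and HIS4, a histone H4 gene, by 0.33 ± 0.0863. The HIS4 call ended without friCol-FLC and without FRISf2-flc3, while AUR2 passed in all 12 alternatives. Of 17 cell wall probe sets 2 were higher and 1 lower. The expansin gene EXPA20 rose by 0.67 ± 0.0882, another expansin gene, EXPA8, fell by 0.99 ± 0.184, and XTH32, of the xyloglucan-modifying enzymes, rose by 0.38. The XTH32 call ended without friCol-flc3 and without FRISf2-flc3.

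Cytoskeleton genes had 1 higher and 4 lower of 9. ACT11, an actin gene, rose by 0.72 ± 0.0908, from 6.94, 6.41 and 6.58 to 7.56, 7.28 and 7.27. The LIM-domain protein genes WLIM2a, WLIM1 and WLIM2b fell by 0.46, 0.46 and 0.28, and the beta-tubulin gene TUB5 fell by 0.45. Without FRISf2-flc3 the calls of all 3 LIM genes and of TUB5 ended. WLIM2a also lost its call without friCol-flc3, and WLIM2b kept its call in only 6 of 12 alternatives. Among glycosyltransferases and beta-glucosidases 3 were higher and 5 lower of 24. UGT84A1, which glucosylates hydroxycinnamic acids, rose by 1.06 ± 0.0943, and UGT72E1, a gene of monolignol glucosylation, fell by 1.03 ± 0.129. BGLU47 and BGLU33, beta-glucosidase genes, fell by 0.90 and 0.80. The lists of shoot apex and flower development (4 tested), auxin and gibberellin (7), cytochrome P450 (3), flavonoid synthesis (1) and ribosomal proteins (1) had 0 calls. YAB3, a gene of organ polarity in that first list, measured 0.30 ± 0.0892 with an adjusted p of 0.054.

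Of 118 genes with several tested probe sets, 28 had at least 1 called, and 16 of these had every probe set called. None of the 118 had called probe sets in both directions. Genes with adjoining locus names were both called in 24 of 603 tested pairs, 17 in the same direction and 7 in opposite ones. Of all tested probe sets with 1 gene, 15.1% were called. That share is of single probe sets, while a pair counts only if both genes are called, so the pairs cannot be set against it directly. Whether adjoining genes were called together more often than the share gives was not tested. In AT2G38380 and AT2G38390, adjoining peroxidase genes, the falls were 1.34 and 1.17. UGT84A1 and UGT84A3 rose by 1.06 and 0.47, the latter without a call once friCol-FLC was left out. Probe sets of such close relatives may read both transcripts, so the values of these pairs are not separate observations. AT4G33560 and AT4G33550 went opposite ways, by 2.02 and -0.47, as did PORB and AT4G27450, by -0.63 and 0.83.

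Many of the largest responses had no gene name. Of the 20 largest called probe sets 14 were without exactly 1 annotated gene, and those given here were chosen after their values were seen. 20443_s_at fell by 3.86 ± 0.104 and 16422_at by 3.56 ± 0.0824. The former measured 9.44, 9.46 and 9.42 on day 0 and 5.54, 5.40 and 5.79 on day 4. 20442_i_at fell by 3.16 ± 0.084, from 12.73, 12.72 and 12.61 to 9.48, 9.47 and 9.64.

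The largest rise of any called probe set was that of 12876_at. It measured 3.07, 3.48 and 3.27 on day 0, 4.05, 4.38 and 4.83 on day 2 and 6.25, 6.66 and 6.23 on day 4 in friCol-FLC, friCol-flc3 and FRISf2-flc3. The difference on day 4 was 3.11 ± 0.0924, or 8.64-fold (adjusted p = 1.2e-06). Its day 0 levels lie below the filter level of 3.56, near the low end of the array, so the fold is less certain. 18035_at, 17538_at and 14123_at rose by 2.30 ± 0.161, 2.27 ± 0.0943 and 2.23 ± 0.0988. Of these, 14123_at also lay below the filter level on day 0, at 3.01, 3.30 and 3.01, so its fold is likewise less certain.

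In FRISf2-FLC, whose arrays had no part in the fit behind these calls and entered only the filter on low values, most responding probe sets moved the same way. The sign was the same for 1022 of 1090 called probe sets, or 93.8% (95% Wilson interval 92.2 to 95.05%, which treats probe sets as independent although they share 2 arrays). By direction these were 475 of 511 higher and 547 of 579 lower probe sets. Among all tested probe sets the sign was that of the 3-genotype mean in 71.5%. Most of these had differences near 0, where noise can set the sign, so the 2 shares do not compare like with like. The median difference in FRISf2-FLC was 0.34 for the higher and -0.49 for the lower probe sets, against 0.48 and -0.58 in the 3 genotypes.

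**Figure D4:**
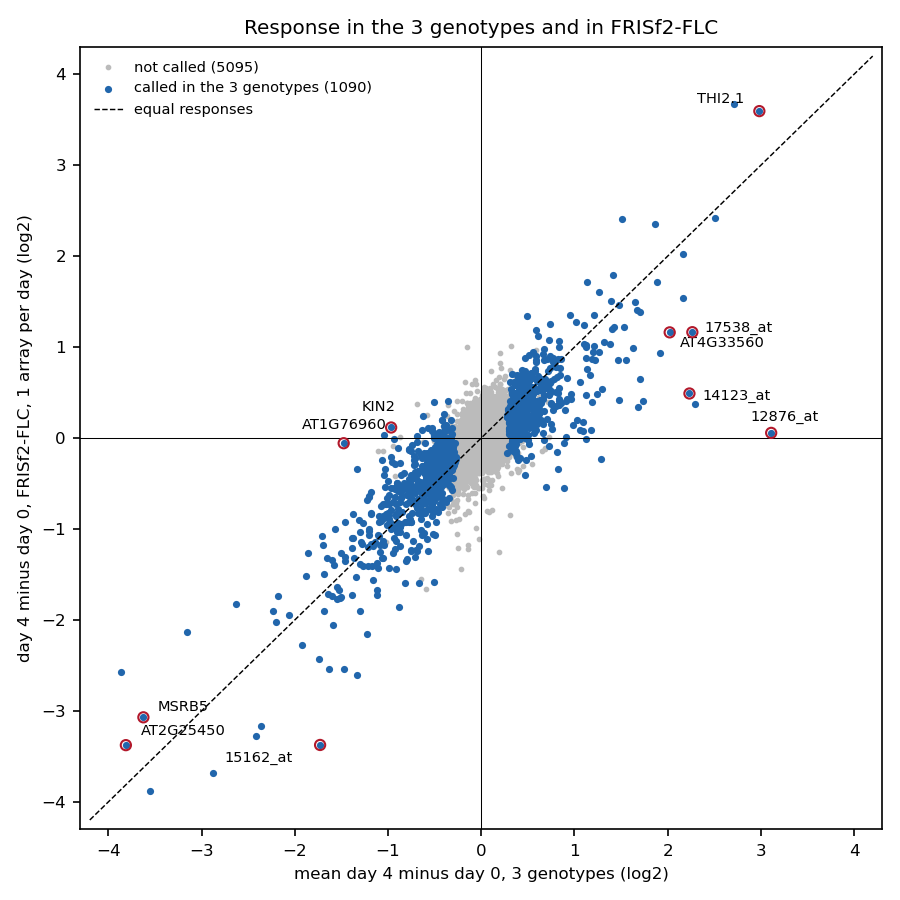
Day 4 minus day 0 difference in FRISf2-FLC (log2, y axis, 1 array per day) against the mean difference of the 3 genotypes (log2, x axis) for 6185 probe sets. Blue points are the 1090 called in the 3 genotypes, the dashed line marks equal responses and circled points are named. 12876_at lies at 3.11 and 0.06, and THI2.1 at 2.98 and 3.60.

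Responses in FRISf2-FLC were often smaller than the mean of the 3 genotypes, over all tested probe sets as among the called ones. The median share of that mean was 68.3% for the higher and 80.3% for the lower probe sets, and 404 of 511 (79.1%) and 389 of 579 (67.2%) fell short of it. Over all tested probe sets, most of them with differences near 0, the median share was 64.1%, and 3965 of 6185 (64.1%) fell short. A response under 0.5 of the mean was read for 299 of the 1090 called probe sets (27.4%) and for 43.9% of all tested. Calling favours probe sets that are large in the genotypes used, so the 100 largest responses of each pair of genotypes were also read in the genotype left out. For the rises the left-out genotype gave a median of 98.5% (friCol-FLC), 97.8% (friCol-flc3) and 81.8% (FRISf2-flc3) of the pair's mean. FRISf2-FLC gave 69.6%, 65.4% and 70.8% for the same probe sets. For the falls the shares were 101%, 90.7% and 91.2%, against 88.5%, 86.9% and 87.2%. FRISf2-FLC was thus the lower in each of these 6 readings, by more for rises than for falls. The readings share arrays and each genotype has 1 array per day, so they carry no test.

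Across the 6185 probe sets the day 4 differences of the 3 genotypes correlated with each other at Pearson's r from 0.68 to 0.78, and with those of FRISf2-FLC at 0.70 to 0.74. Probe sets are not independent replicates, and all values come from 8 arrays.

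A test of the FRISf2-FLC response against the mean of the 3 genotypes called 1 of 6185 probe sets, 0.0162%. FRISf2-FLC has 1 array per day and was assumed to vary like the others. The call was 12876_at, which measured 3.04, 3.12 and 3.10 on days 0, 2 and 4 in FRISf2-FLC. Its response there was 0.06 against 3.11, a difference of -3.05 ± 0.189 (adjusted p = 0.0017). Every level of 12876_at in FRISf2-FLC, and every day 0 level, lay below the filter level, so it passed the filter only through arrays of the 3 genotypes where it is high. With no filter it was again the 1 call of 8247 probe sets (adjusted p = 0.00171). Differences between levels this low are uncertain in size. The same limit holds for 14123_at, which passed the filter only through day 2 and day 4 arrays of the 3 genotypes, where it is high. Without friCol-FLC 73 probe sets were called in this test, and 2 and 1 without friCol-flc3 and FRISf2-flc3. At an unadjusted p under 0.05 there were 252 probe sets, or 4.07% of those tested. The next smallest adjusted p-values were 0.0887 for 14123_at and 0.0964 for AT1G76960. A missing call does not show that the genotypes respond alike, since the standard error of the difference was 0.176 for AT1G76960 and 0.596 for THI2.1.

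Among named genes called in the 3 genotypes, AT1G76960, AT1G78820, KIN2, AT2G17280 and UGT84A1 had FRISf2-FLC responses furthest short of the mean. AT1G76960 measured 7.13, 7.28 and 6.81 on day 0 and 5.55, 5.80 and 5.44 on day 4 in the 3 genotypes. In FRISf2-FLC it measured 7.46 and 7.40, so it differed by -0.06 there, and the difference from the 3 genotypes was 1.42 ± 0.176. AT1G78820 went from 6.42, 6.76 and 6.40 to 7.61, 8.03 and 7.46, and from 6.68 to 6.77 in FRISf2-FLC. UGT84A1 went from 3.88, 3.82 and 3.70 to 4.87, 4.82 and 4.91, and from 3.89 to 3.98. Neither passed the test of the difference (adjusted p = 0.145 and 0.248).

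KIN2 differed in its starting level. FRISf2-FLC had 10.50 on day 0, below the 3 genotypes, and 10.62 on day 4, inside their day 4 range. Its second probe set differed by -0.01 in FRISf2-FLC, and LEA4-5 by 0.00. COR47, of the same list, moved by -1.18 and -1.08 there, close to its differences in the 3 genotypes. For the whole cold and dehydration list the median was -0.26 in FRISf2-FLC and -0.58 in the 3 genotypes, and no member passed the test of the difference.

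Furthest beyond the mean were AT2G38380, THI2.1, OSM34, STZ and GSTF3, again without a call. AT2G38380 measured 8.02 and 5.41 on days 0 and 4 in FRISf2-FLC, a difference of -2.61 against -1.34. In the 3 genotypes it measured 6.88, 7.49 and 7.13 on day 0 and 6.20, 5.97 and 5.31 on day 4. FRISf2-FLC thus started above them and ended inside their range. OSM34 moved by -2.16 against -1.23 and GSTF3 by -2.44 against -1.74, each also from a day 0 level above those of the 3 genotypes. STZ, a zinc-finger transcription factor gene, moved by -1.59 against -0.82, and its own call in the 3 genotypes held in 7 of 11 alternatives. In contrast, CCL, MSRB5 and AT2G25450 moved in FRISf2-FLC by -2.02, -3.07 and -3.38, between 84.7% and 91.9% of the 3-genotype mean. The 3 probe sets of GI moved there by -1.49, -1.73 and -1.53, or 88.4%, 108% and 114% of their means.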

How the data were processed

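The data are log2 values deposited by the authors, 1 for each probe set on each of the 12 arrays. The log base was read from the deposited values; for the authors' software, normalization and background correction the sources used here give nothing, so steps that compress low values could not be allowed for. They were not rescaled. Precision is limited by the number of arrays.

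Groups came from the sample titles. Control probe sets (50 of 8297) were left out. In the platform annotation 3794 probe sets have 1 gene, 70 have several and 4383 have none. RefSeq's TAIR10.1 gene table holds 3784 of the first kind, the only kind given a gene name.

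Day 4 minus day 0 was fitted on 6 arrays with limma 3.58.1 in R 4.3.3 (lmFit, eBayes with a trend, two-sided), with genotype as the block, which is the pairing by genotype. The fit had 2 residual and 5.81 prior degrees of freedom. The difference of FRISf2-FLC was fitted on 8 arrays with its own day term. An exact sign-flip test over 3 pairs cannot go below p = 0.25, so none was run for single genes. The fit was tested on simulated data with 6185 probe sets. Of 67, 67 and 66 changes of 0.5, 1 and 2 (log2), 47, 66 and 65 were called, with 7 false calls. The simulated noise was independent between arrays, with variances drawn from the fit's own prior. Each change was the same on every day 4 array, without differences between genotypes or shifts of whole arrays. The simulation therefore cannot show how the calls fare where genotypes respond differently.

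The arrays compared and the gene lists were chosen with earlier results of these data known. Named genes are the 15 largest rises and falls among called probe sets with 1 gene and 1 sign in all 3 genotypes, called list members, and the 5 furthest short of and beyond the mean in FRISf2-FLC. Matches by symbol were taken out of 7 lists where the gene is of another kind (21 genes), after values had been seen. With them the defence list had 2 higher and 4 lower of 14 tested, the flavonoid list 0 and 1 of 2, and the lipid and wax list, otherwise empty, 1 and 0 of 4; the calls of the other lists did not change. Alternatives were quantile normalization, median centring, other filters and variance settings, day 2 arrays added, no genotype block, a fold rule and leaving out each genotype. No sequences were used.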

Additional observations from a re-analysis of the deposited data

Results flagged for a closer look

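The probe set 12876_at, which has no gene name in the annotation, stood out because its day 4 response in FRISf2-FLC differed from that of the 3 other genotypes in a test of the difference itself. The response was smaller by -3.0542 (log2), with a limma adjusted p of 0.0017. Its levels in FRISf2-FLC all lay below the filter level of 3.56, and it passed the filter only through high arrays of the other genotypes, so the size of the difference is uncertain. With no filter the adjusted p was 0.00171. The day 2 arrays took no part in the comparison but entered the filter. They were read against the same day 0 arrays, so they are no separate support. The smallest day 2 minus day 0 difference of 12876_at in the 3 genotypes was 0.8995 (log2), and in FRISf2-FLC its 3 levels lay between 3.04 and 3.12. All of these values rest on 1 array per genotype and day.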

How the results depend on the processing

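The count of 1090 called probe sets lay between 769 (day 2 arrays added) and 1141 (robust trend) under the other normalizations, filters and fits, and at 99 by the rule of a 2-fold change in each genotype. Leaving out 1 genotype gave 642 to 1102. Without the replicate block, which is the genotype, it was 1092, of which 989 were shared with the 1090. With day 2 arrays but without the FRISf2-flc3 day 2 array, a setting chosen after seeing the data because its BioB control was at 9.53, the count was 1097. The share of higher calls lay between 40.3% and 52.1% in the limma fits, against 46.9%, and 33 of the 99 by the fold rule were higher. The share of called probe sets with the same sign in FRISf2-FLC, 93.8%, was 95.4% with day 2 arrays added and 91.4 to 95.5% with 1 genotype left out. Among the 100 largest responses of each pair of genotypes it was 99, 99 and 100%, and 99, 100 and 100% read in the left-out genotype. The count of 1 probe set for the FRISf2-FLC difference became 0 with the filter at the 50th percentile, which 12876_at does not pass (168 probe sets had an unadjusted p under 0.05 in limma there), 3 with a robust trend, and 1 to 73 with 1 genotype left out. Over 872 values of 74 named probe sets none changed sign. Calls were lost in 39 of them, and 56 of the 74 probe sets were called in every alternative. With 1 array per genotype and day, array noise and genotype differences cannot be told apart, and levels near the filter level of 3.56 limit what can be read at the low end.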
